A study of Caenorhabditis elegans with 6 samples.

Results

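UDP-glucuronosyltransferases (UGTs) were measured in whole Caenorhabditis elegans of the wild-type strain N2 after contact with albumin-coated iron oxide nanoparticles. The UGT genes were taken as all probe sets whose symbol in the platform annotation is ugt followed by a number, on all 6 arrays. This gave 67 probe sets of 29317 deposited, for 67 of the 25478 genes that probe sets of a single gene name. Each of the 67 genes is annotated as protein-coding under the same symbol in RefSeq (assembly WBcel235). The exposed group (3 arrays) was hermaphrodites kept for 24 h in 50% M9 buffer with 500 µg/mL BSA-SPIONs, superparamagnetic iron oxide nanoparticles under a monolayer of bovine serum albumin. The control group (3 arrays) was kept for the same 24 h in 50% M9 alone. Both groups were hatched from bleached eggs, grown from L1 to L4 for 48 h on NGM plates with Escherichia coli OP50 as food, and exposure was at 20 °C; the labels call the material stage L4 hermaphrodites. No group analysed here received albumin alone or bare particles, so particle, albumin and iron cannot be told apart. Separate cultures for the replicates are not stated, so the p-values cover the scatter among these 6 arrays alone, and that scatter may be technical.

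UGTs are membrane enzymes, mostly of the endoplasmic reticulum, that transfer a sugar from a UDP-sugar donor to small fat-soluble molecules. The product is more soluble in water and can be exported by ABC transporters. This conjugation is the second phase of detoxification, after oxidation by cytochromes P450 and beside conjugation by glutathione S-transferases, and it also acts on the animal's own hormones and pigments. In nematodes glucose is a common sugar in such conjugates, and the intestine is a main site of detoxification. The family is large in C. elegans and many of its genes lie side by side in the genome. No substrate is assigned to single members here, and near-identical neighbours may be read in part by each other's probes.

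Exposure went with few called changes in UGT transcripts, in both directions. On the log2 scale of the array, 2 UGT genes were higher in exposed worms (ugt-31 and ugt-53) and 3 were lower (ugt-17, ugt-56 and ugt-55) at an adjusted p under 0.05, and 62 did not pass. Differences that passed lay between 1.87-fold and 2.75-fold. The 5 calls are 7.46% of the family, where 3.66% of all 26192 tested probe sets passed (1.06% as higher and 2.6% as lower). Tests were made with limma on all tested probe sets, with Benjamini-Hochberg adjustment over all of them. The share called is a description, and whether it departs from the rest of the array was not tested.

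At an unadjusted p under 0.05 with a change of at least 1.5-fold, 4 UGT genes were higher (5.97% of the family) and 10 lower (14.9%) in exposed worms, or 20.9% in all, where 19.1% of all tested probe sets met this rule (7.97% as higher and 11.1% as lower). At an unadjusted p under 0.05 alone, whatever the fold, were 16 of 67 members and 5882 of 26192 tested probe sets. The 3 exposed arrays lay entirely above the controls for 6 members (8.96% of the family) and entirely below them for 13 (19.4%), or 28.4% in all. Over all tested probe sets such a gap was seen for 28.2% (14.6% with exposed above and 13.5% with exposed below). Both directions together are near the share of the whole array, while exposed arrays lay above controls in a smaller share and below them in a larger share of the members; neither difference was tested.

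**Figure D1:**
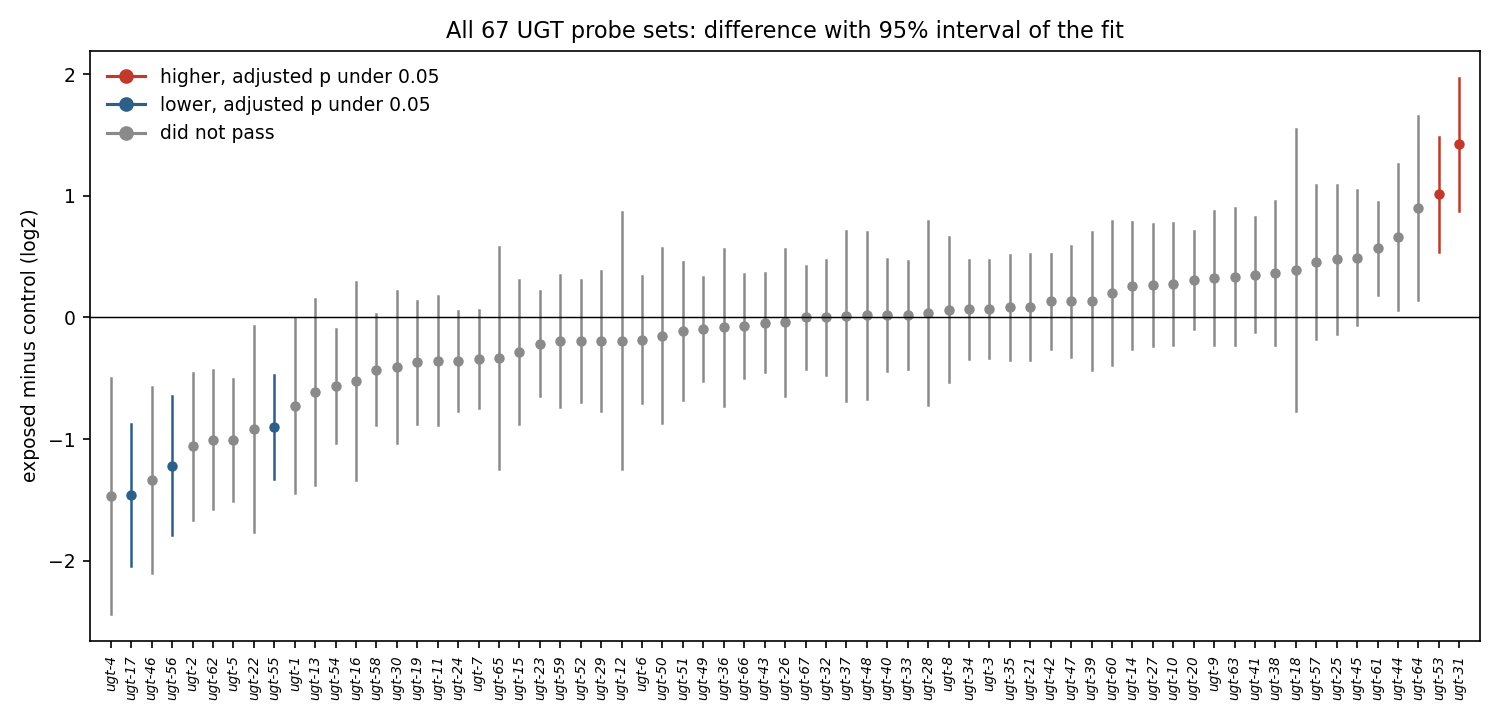
Difference between exposed and control worms (log2, y axis) for each of the 67 UGT probe sets (x axis, from lowest to highest), with points for the estimate and lines for its 95% interval in limma. Most intervals include 0, and the 5 called members lie toward both ends, from -1.46 (ugt-17) to 1.42 (ugt-31).

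Over the whole family the median log2 difference was -0.04, with 33 positive and 34 negative values and a range from -1.47 to 1.42. Over all tested probe sets the median was 0.05. Equal array medians, another way of scaling, moved the median of all tested probe sets to 0.26 and that of the UGTs to 0.17. The array medians over tested probe sets were 3.70 to 3.89 in exposed arrays and 3.97 to 3.98 in controls. The differences below are on the deposited scale.

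The largest rise was in ugt-31. Its log2 expression values were 4.82, 4.37 and 4.05 in exposed arrays 1, 2 and 3, against 3.12, 2.92 and 2.93 in control arrays 1, 2 and 3. All 3 exposed arrays lay above all controls, exposed 1 was the highest, and the controls lay close together. The difference was 1.42 (95% interval 0.88 to 1.97), or 2.68-fold higher, with an adjusted p of 0.0266 in limma. This call was lost without exposed 1, exposed 2, control 1 or control 2, with adjusted p-values of 0.0541 to 0.108.

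The other gene that rose was ugt-53, on chromosome V. It measured 3.91, 4.22 and 4.05 in exposed arrays 1 to 3, against 3.08, 2.78 and 3.29 in control arrays 1 to 3. Here too the groups were apart, and the lowest exposed array exceeded the highest control. The difference of 1.01 (95% interval 0.54 to 1.48), or 2.02-fold higher, had an adjusted p of 0.044 in limma. It passed without control 3, and the call was lost without any of the other 5 arrays, with adjusted p-values of 0.093 to 0.146. It was also lost with an intensity trend in eBayes (0.0768) and over all deposited probe sets (0.0519).

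Among the falls that passed, ugt-17 had the smallest p. Exposed arrays 1 to 3 were at 5.03, 4.79 and 4.53 (log2), against 6.37, 5.82 and 6.54 in control arrays 1 to 3. Every exposed array lay below every control. The gene fell by 1.46 on the log2 scale (95% interval -2.04 to -0.88), or 2.75-fold lower, with an adjusted p of 0.0288 in limma. It passed without control 3 and not without any of the other 5 arrays, with adjusted p-values of 0.0616 to 0.116, nor with equal array medians (0.05, on the threshold) or a second quantile normalization (0.0509).

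The neighbouring genes ugt-55 and ugt-56 on chromosome V both passed as lower. The probe set of ugt-56 read 2.45, 2.89 and 2.92 in exposed arrays 1 to 3, against 3.56, 4.21 and 4.13 in control arrays 1 to 3, and that of ugt-55 read 3.70, 3.64 and 3.996 in exposed arrays, against 4.69, 4.77 and 4.57 in control arrays. For both genes exposed and control values were separate, and exposed 1 gave the lowest ugt-56 value. In limma ugt-56 fell by 1.22 (95% interval -1.79 to -0.64), or 2.32-fold, at an adjusted p of 0.0447. The fall of ugt-55 was smaller, -0.90 (95% interval -1.33 to -0.47) or 1.87-fold, at an adjusted p of 0.0452. The call of ugt-56 was lost without each of the 6 arrays in turn, with adjusted p-values of 0.0574 to 0.152. It was lost too with equal array medians (0.0609), an intensity trend (0.0541), all deposited probe sets (0.0528), controls 2 and 3 averaged (0.0763) and both arrays numbered 3 left out (0.0616). That of ugt-55 was kept without control 3 and lost without each of the other 5, with adjusted p-values of 0.0622 to 0.155. It was further lost with a second quantile normalization (0.0669), equal array medians (0.0708), an intensity trend (0.119), all deposited probe sets (0.0528) and controls 2 and 3 averaged (0.065). As the genes are neighbours of 1 family, their probes may share targets. This was not examined, so the pair is not taken as 2 independent observations.

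**Figure D2:**
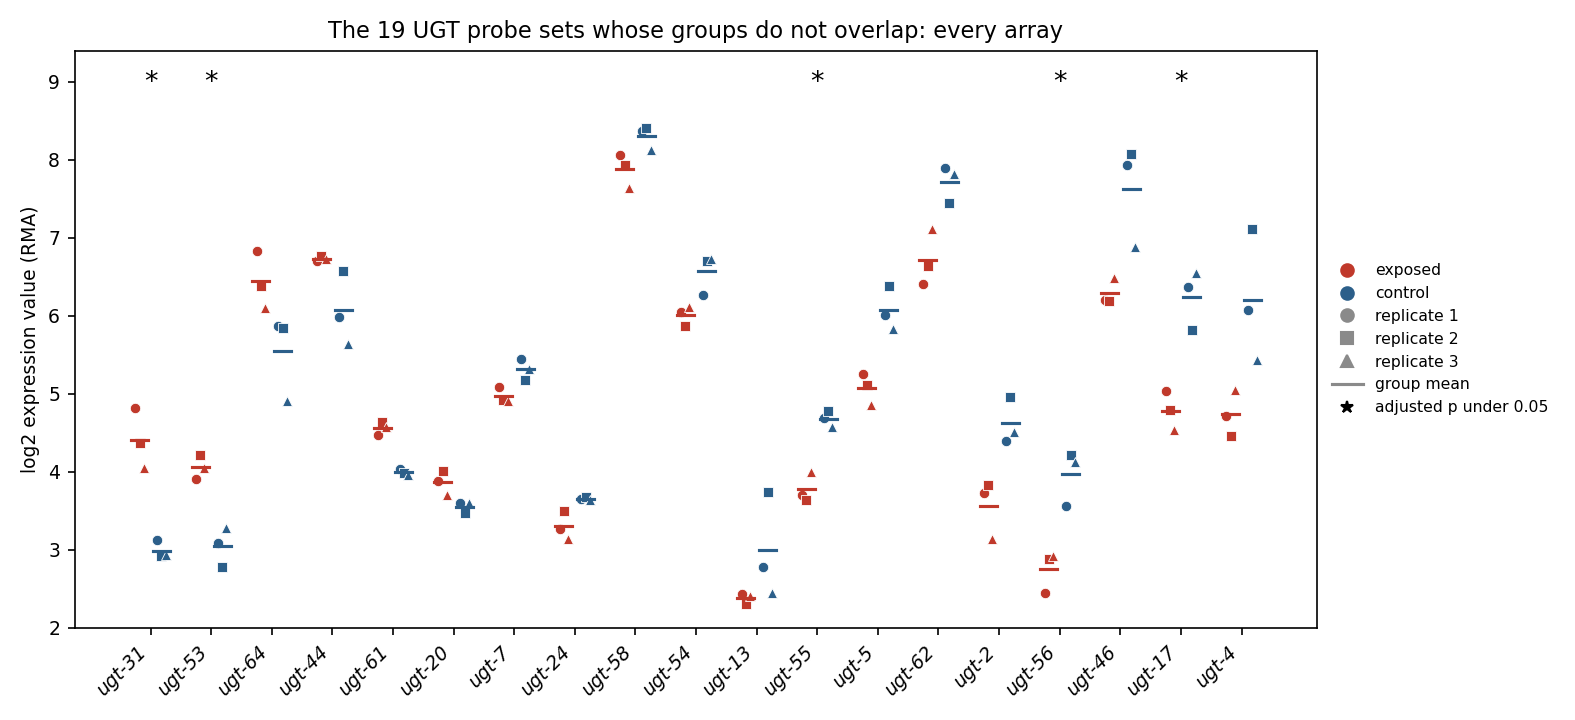
Log2 expression values (y axis) of the 19 UGT probe sets whose exposed arrays lie all above or all below the controls (x axis, ordered by their difference), with exposed arrays left of control arrays, replicate numbers as symbols, group means as bars and asterisks for an adjusted p under 0.05. The members at the right are lower in exposed worms, and control 3 sits nearest to the exposed arrays in ugt-46 and ugt-4.

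Beyond the calls, 4 members had exposed arrays above all controls. The largest of these differences was in ugt-64, with 6.84, 6.39 and 6.11 in exposed arrays 1 to 3, against 5.88, 5.85 and 4.91 in control arrays 1 to 3. Control 3 was the low one there. The difference of 0.90 (95% interval 0.15 to 1.66) had an adjusted p of 0.161 in limma, and it was 0.58 without control 3. For ugt-44 the exposed arrays were nearly identical, at 6.70, 6.77 and 6.73, against 5.99, 6.58 and 5.64 in controls. The difference was 0.66 (95% interval 0.06 to 1.26), with an adjusted p of 0.184. The gene ugt-61 showed little scatter in either group, with 4.47, 4.64 and 4.57 in exposed arrays, against 4.03, 3.99 and 3.96 in controls. Its difference of 0.57 (95% interval 0.19 to 0.95) had an adjusted p of 0.0997. The difference in ugt-20 was smaller, 0.31 (95% interval -0.10 to 0.71, adjusted p = 0.344).

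A wider set of members lay below the controls without passing. The largest difference of the family was in ugt-4, at 4.71, 4.46 and 5.05 in exposed arrays 1 to 3, against 6.08, 7.11 and 5.43 in control arrays 1 to 3. The controls spread over more than 1 log2 unit, with control 2 the highest and control 3 the lowest. The difference was -1.47 (95% interval -2.43 to -0.50), with an adjusted p of 0.0968, and it passed without control 3 (-1.86, adjusted p = 0.0298). Over all alternatives its adjusted p ran from 0.0197 to 0.23. Its neighbour ugt-5 measured 5.25, 5.11 and 4.86 in exposed arrays, against 6.01, 6.38 and 5.84 in controls. The groups were clearly apart at a difference of -1.003 (95% interval -1.50 to -0.50), and the adjusted p was 0.0519. Without control 3 it was 0.0329, in a range of 0.016 to 0.16 over all alternatives.

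The X-linked gene ugt-46 also had control 3 as the lowest control, as ugt-4 did. Its values were 6.21, 6.19 and 6.49 in exposed arrays 1 to 3, against 7.94, 8.07 and 6.88 in control arrays 1 to 3. Control 3 lay closer to the exposed arrays than to the other controls. The difference was -1.33 (95% interval -2.10 to -0.57, adjusted p = 0.0712), and -1.71 without control 3 (adjusted p = 0.00969, in a range of 0.00689 to 0.204 over all alternatives). By contrast ugt-62, on chromosome III, had tight controls: 6.41, 6.64 and 7.12 in exposed arrays, against 7.89, 7.45 and 7.83 in controls. Its difference of -1.003 (95% interval -1.57 to -0.43) had an adjusted p of 0.0692, in a range of 0.0173 to 0.198 over all alternatives. It passed with array weights (0.0173) and without both arrays numbered 3 (0.0404), and in none of the fits without 1 array.

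The neighbours ugt-1 and ugt-2 were both lower in their means. For ugt-2 the exposed arrays were at 3.73, 3.83 and 3.14, against 4.40, 4.96 and 4.51 in controls, without overlap (difference -1.06, 95% interval -1.66 to -0.46, adjusted p = 0.0699). For ugt-1 they were at 4.48, 4.10 and 4.82, against 4.75, 5.09 and 5.74 in controls. Here exposed 3 exceeded control 1, and the difference of -0.73 (95% interval -1.44 to -0.01) had an adjusted p of 0.219. Without control 3 the ugt-1 difference was -0.45. The gene ugt-22 also overlapped, at 3.25, 3.61 and 4.07 in exposed arrays, against 4.96, 4.90 and 3.81 in controls. Control 3 lay below exposed 3. Its difference was -0.92 (95% interval -1.76 to -0.07, adjusted p = 0.192), and -1.29 without control 3 (adjusted p = 0.0404, in a range of 0.019 to 0.416 over all alternatives). In ugt-13 the exposed arrays were at 2.31 to 2.43 and the controls at 2.45 to 3.74, a gap of little size with 1 high control (difference -0.61, 95% interval -1.38 to 0.16, adjusted p = 0.322). Without control 2 the ugt-13 difference was -0.23. The remaining members with exposed arrays below all controls were ugt-54 (-0.56), ugt-58 (-0.43), ugt-24 (-0.35) and ugt-7 (-0.34), with adjusted p-values of 0.159 to 0.296.

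Of the 5 members with the brightest probe sets (ugt-58, ugt-18, ugt-23, ugt-50 and ugt-62) none passed in limma, and ugt-62 alone was at an unadjusted p under 0.05. The brightest, ugt-58, averaged 7.88 ± 0.22 in exposed worms and 8.31 ± 0.15 in controls (SD, n = 3 each), with an adjusted p of 0.246 in limma. The gene ugt-23 was at 7.66 ± 0.16 in exposed worms and 7.87 ± 0.16 in controls (difference -0.21, 95% interval -0.65 to 0.22, and -0.12 without control 3). For ugt-50 the arrays gave 7.22, 7.44 and 7.32 in exposed worms, against 7.15, 7.09 and 8.18 in controls. Control 3 alone was high there, and the difference of -0.15 (95% interval -0.87 to 0.57) turned to 0.20 without it. Brightness depends on the probes as well as on the RNA, so these levels do not rank the genes by transcript amount.

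The members that varied most within a group were ugt-18 and ugt-12, both among the controls. The probe set of ugt-18 gave 8.06, 8.34 and 7.70 in exposed arrays 1 to 3, against 7.57, 6.63 and 8.74 in control arrays 1 to 3, so that the controls enclosed the exposed values (difference 0.39, 95% interval -0.77 to 1.55). That of ugt-12 gave 3.66, 3.58 and 3.30 in exposed arrays, against 3.73, 4.67 and 2.72 in controls (difference -0.19, 95% interval -1.25 to 0.86). Control 2 and control 3 took opposite ends in these genes. No direction can be read from either, since both signs turned without control 2 (-0.12 for ugt-18 and 0.29 for ugt-12).

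Controls scattered more than exposed arrays across the family. The SD was larger among controls than among exposed arrays for 43 of 67 members (64.2%), against 50.7% of all tested probe sets. The median SD of the members was 0.19 in exposed arrays and 0.27 in controls, against 0.26 and 0.27 over all tested probe sets. Control 3 was the array farthest from the other controls for 35 members (52.2%), and for 53% of all tested probe sets. Across the 67 members, which share the same arrays and are not replicates, control 3 correlated with controls 1 and 2 at r of 0.951 and 0.917, while controls 1 and 2 correlated at 0.977. Exposed arrays correlated with each other at 0.973 to 0.982, and arrays of different groups at 0.895 to 0.942.

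The members were sorted into quartiles of mean log2 value over all tested probe sets, with borders at 2.66, 3.87 and 6.57. In the lowest quartile were 18 members, among them ugt-35, ugt-14, ugt-34 and ugt-67. All 18 had overlapping groups, where 16.2% of all tested probe sets of that quartile had groups apart, and their differences lay between -0.28 and 0.37. The method compresses differences at this end, and these probe sets do not show whether the transcripts were present.

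The second quartile held 20 members, of which ugt-31 and ugt-53 were called higher and ugt-56 lower, or 15% of them, against 2.32% of all tested probe sets of that quartile. In the third quartile were 22 members, with ugt-17 and ugt-55 called lower, or 9.09% of them, against 8.64% of all tested probe sets there. Groups did not overlap for 45.5% of these 22, against 37.6% of all tested probe sets in that quartile. The highest quartile held 7 members (ugt-18, ugt-23, ugt-46, ugt-49, ugt-50, ugt-58 and ugt-62). None of these 7 was called by limma, where 3.68% of all tested probe sets of that quartile were. At an unadjusted p under 0.05, 2 of the 7 were lower. In either direction 1708 of the 6548 tested probe sets of that quartile were at that p. Of the 7 UGT differences 6 were negative. Their median was -0.21, against 0.14 for all tested probe sets of that quartile.

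**Figure D3:**
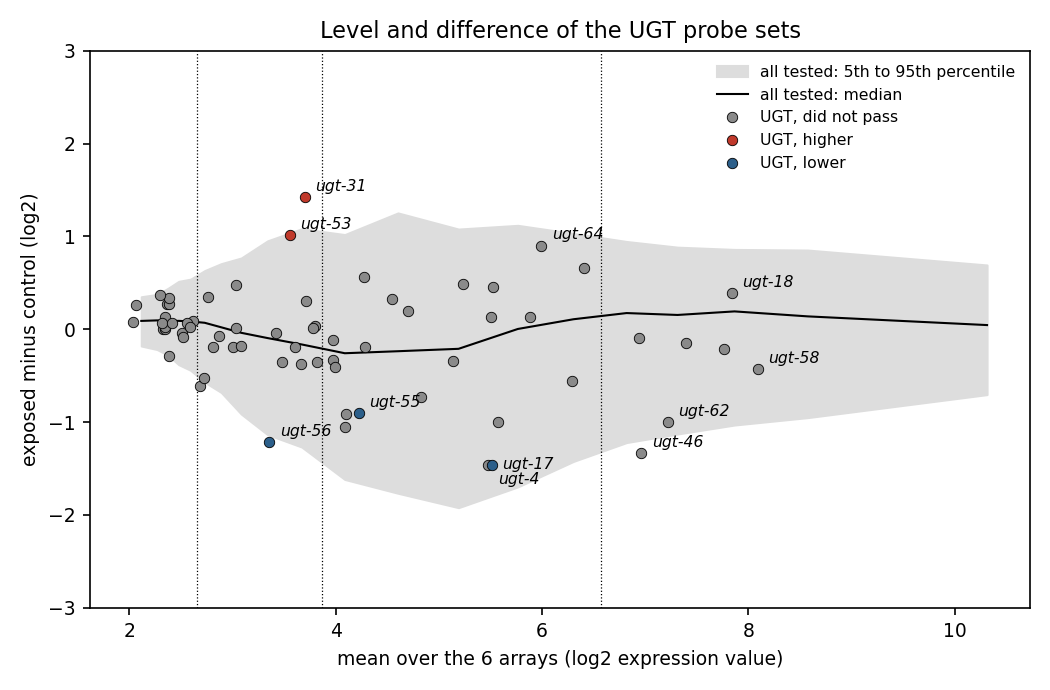
Difference between exposed and control worms (log2, y axis) against the mean over the 6 arrays (log2 expression value, x axis) for the 67 UGT probe sets, with a grey band from the 5th to the 95th percentile of all tested probe sets, their median as a line and quartile borders as dotted lines. Members of the lowest quartile lie between -0.28 and 0.37, while ugt-31 lies above the band and ugt-46, ugt-56 and ugt-13 below it.

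Of the 67 genes, 42 lie on chromosome V, 12 on IV, 5 on I, 4 on X, 3 on III and 1 on II. Of the 5 called members 4, ugt-53, ugt-17, ugt-55 and ugt-56, lie on chromosome V, as do 42 of the 67 genes, and ugt-31 lies on I. The share called over all tested probe sets of each chromosome was not computed, so the calls are not read as concentrated on V. On V 23 differences were positive and 19 negative, with a median of 0.01 (0.05 over all tested probe sets of that chromosome). Genes whose starts lay within 20 kb of the next UGT gene were taken as neighbours. This gave 11 groups of neighbours with 37 members, and 30 members stood alone.

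The larger groups of neighbours held no called member, where 3.66% of all tested probe sets were called. With so few members this count does not set these groups apart. Several members, among them ugt-14, ugt-67 and ugt-40, lie in the lowest quartile, where 0 of all tested probe sets were called. The group of 8 on chromosome V (ugt-12, ugt-11, ugt-9, ugt-10, ugt-67, ugt-8, ugt-14 and ugt-13) had 5 positive and 3 negative differences, between -0.61 and 0.32. The group of 6 (ugt-40, ugt-37, ugt-38, ugt-39, ugt-41 and ugt-36) lay between -0.08 and 0.37. No member of either group met the looser rule of an unadjusted p under 0.05 and 1.5-fold, which 19.1% of all tested probe sets met. The mean log2 values of their probe sets lay between 2.07 and 5.88.

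Both members of the pairs ugt-55 with ugt-56 and ugt-1 with ugt-2 were lower by the looser rule. In the group of 4 on chromosome V, ugt-5 and ugt-4 met that rule as lower (-1.003 and -1.47), while the adjacent ugt-6 and ugt-3 had differences of -0.18 and 0.07 (95% intervals -0.70 to 0.34 and -0.33 to 0.47). The pair ugt-47 and ugt-17 had differences of 0.13 (95% interval -0.32 to 0.59) and -1.46. Whether members of a pair differ from each other was not tested.

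**Figure D4:**
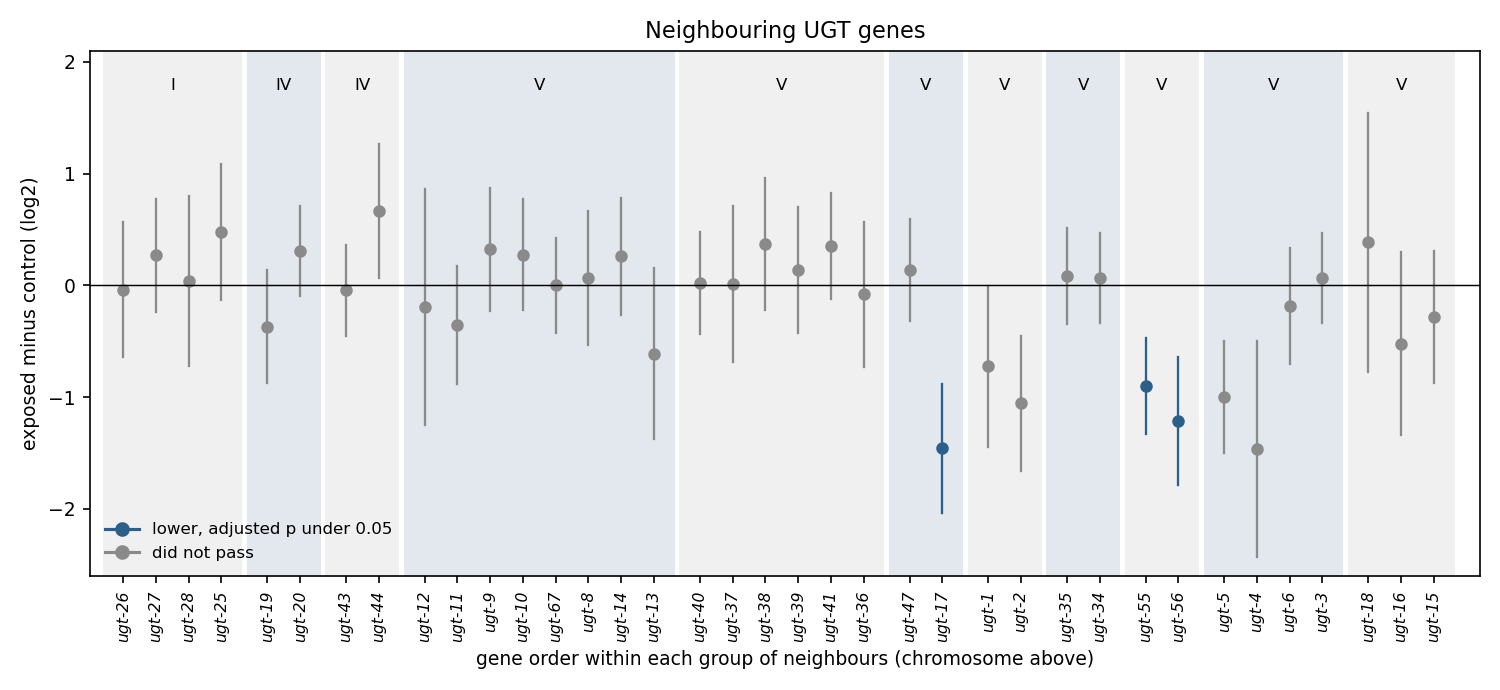
Difference between exposed and control worms (log2, y axis) with 95% intervals for the 37 UGT genes in 11 groups of neighbours (x axis, shaded by group and in gene order, with the chromosome above). The pairs ugt-1 with ugt-2 and ugt-55 with ugt-56 lie below 0, and the groups of 8 and 6 lie between -0.61 and 0.37.

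Calls among the genes around the UGTs in detoxification stand beside a whole-array share of 3.66% called. At an unadjusted p under 0.05 were 5882 of all 26192 tested probe sets. Of the UDP-sugar supply list, 6 of 8 genes were found by symbol among probe sets of a single gene. The symbols gale-1 and K08E3.5 were not found, which does not show that the array lacks these genes. All 6 differences were positive (median 0.43), with 0 passing in limma and 1 at an unadjusted p under 0.05. The smallest p-values were for D1005.2, at 6.01 ± 0.40 in exposed worms and 5.39 ± 0.16 in controls (SD, n = 3 each, adjusted p = 0.184), and for gsy-1, the gene of glycogen synthase, which draws on UDP-glucose, at 9.03 ± 0.23 in exposed worms and 8.55 ± 0.25 in controls (adjusted p = 0.246). The gene sqv-4, whose enzyme makes UDP-glucuronate from UDP-glucose, had a difference of 0.61 (95% interval -0.22 to 1.44).

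Among 75 genes of oxidation, the cytochromes P450 and their reductase emb-8, 0 rose and 1 fell (1.33% called, median log2 difference 0.13). The gene that fell was the cytochrome P450 gene cyp-13A5, at 3.36 ± 0.22 in exposed worms and 4.98 ± 0.22 in controls (3.06-fold lower, adjusted p = 0.0157). Of 49 other conjugation genes, glutathione S-transferases and the sulfotransferase gene ssu-1, 1 rose and 2 fell (6.12% called, median 0.00). The glutathione S-transferase gene gst-29 rose to 5.33 ± 0.29 in exposed worms, against 3.16 ± 0.24 in controls (4.52-fold higher, adjusted p = 0.00872). The genes gst-22 and gst-3 fell, by 0.99 and 1.16 on the log2 scale (adjusted p = 0.0305 and 0.044). With equal array medians 3 genes of this list passed as higher and 0 as lower, and the list's median was 0.21.

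No gene of 30 ABC transporters of the pgp, mrp and haf families passed in limma (4 at an unadjusted p under 0.05, median -0.02). With a second quantile normalization 2 passed as higher, and with equal array medians 1, at list medians of 0.08 and 0.18. The smallest p-values were for mrp-4, at 6.86 ± 0.34 in exposed worms and 5.72 ± 0.41 in controls (adjusted p = 0.0675), and haf-6, at 4.96 ± 0.19 in exposed worms and 3.99 ± 0.41 in controls (adjusted p = 0.0779). Of 15 regulators of detoxification and stress genes 0 passed as well (4 at an unadjusted p under 0.05), with 12 negative differences and a median of -0.29 (10 negative and -0.09 with equal array medians). These included hlh-30, which encodes the TFEB homologue (-0.57, adjusted p = 0.131), and pqm-1 (-0.55, adjusted p = 0.159). The gene skn-1, of the Nrf family of stress factors, was at 7.68 ± 0.07 in exposed worms and 7.73 ± 0.07 in controls.

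Marker lists of several tissues held calls on the same arrays, where 2.6% of all tested probe sets were called lower and 1.06% higher. Of 11 intestinal markers, 1 fell (ifb-2, an intestinal filament gene, 2.23-fold lower, adjusted p = 0.0295) and 10 did not pass, and the list's mean log2 value was 6.96 to 7.33 in exposed arrays and 7.62 to 7.93 in controls. The differences ran from -2.76 (ifp-1) to 0.66 (ges-1), with 3 positive and 8 negative. Of 13 neuron markers 6 fell (46.2%), with list means of 6.45 to 6.52 in exposed arrays and 7.34 to 8.08 in controls. Of 6 body wall muscle markers 2 fell (33.3%), at list means of 7.64 to 8.24 in exposed arrays and 8.73 to 9.53 in controls. Of 6 pharynx markers 3 fell (50%), at list means of 5.83 to 6.52 in exposed arrays and 7.15 to 7.74 in controls. The 1 call among the 11 intestinal markers is 9.09% of that list.

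All 8 germline markers had positive differences with 0 passing in limma (4 at an unadjusted p under 0.05), at list means of 8.36 to 9.10 in exposed arrays and 7.66 to 8.49 in controls. Of 7 sperm markers 2 rose (28.6%), at list means of 3.90 to 4.40 in exposed arrays and 3.22 to 3.51 in controls. The 7 sperm differences ran from 0.06 to 2.70 with a median of only 0.13, and groups overlapped for 4 of them. Of 9 hypodermis markers, 4 glia markers and 5 excretory markers, 0 passed in limma (2, 0 and 3 at an unadjusted p under 0.05). Their list means were 6.27 to 6.77 in exposed arrays and 6.43 to 6.81 in controls for hypodermis, 3.70 to 4.29 in exposed arrays and 4.19 to 4.55 in controls for glia, and 7.30 to 7.39 in exposed arrays and 7.70 to 8.10 in controls for excretory cells. With equal array medians 0 body wall muscle markers and 1 pharynx marker passed as lower, and 5 neuron markers did. With a second quantile normalization 2 body wall muscle, 3 pharynx and 6 neuron markers passed as lower, and 2 intestinal markers did. The part of these lists in the UGT differences was not tested. In whole-worm RNA fewer cells of a type and less RNA per cell cannot be told apart.

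How many UGT genes passed depended on single arrays and on scaling, as did the number over all tested probe sets. Higher and lower UGT calls numbered 2 and 7 without control 3 and 1 and 0 without exposed 3. Over all tested probe sets, 278 and 681 as reported became 661 and 1335 without control 3 and 56 and 233 without exposed 3. Without exposed 1, exposed 2, control 1 or control 2, limma called 0 of the family, with 11 to 15 members at an unadjusted p under 0.05. As reported 16 members were at that p. Over all tested probe sets, higher and lower calls were 6 and 43 without exposed 1, 8 and 58 without control 1 and 6 and 47 without control 2. Without exposed 2 they were 267 and 551. The 7 lower calls without control 3 were ugt-17, ugt-55, ugt-4, ugt-5, ugt-46, ugt-22 and ugt-16. With equal array medians 2 were higher and 0 lower (8 lower at an unadjusted p under 0.05), and with a second quantile normalization 3 were higher (ugt-61 being added) and 1 lower (ugt-56). A single control carries the number 2 in its source label and 3 in its title. With controls 2 and 3 averaged into 1 sample the counts were again 2 and 3, but ugt-55 (0.065) and ugt-56 (0.0763) no longer passed and ugt-4 (0.0359) and ugt-46 (0.0354) did. Averaging takes the scatter between controls 2 and 3 out of the fit. These 2 controls were at 7.11 and 5.43 for ugt-4 and at 8.07 and 6.88 for ugt-46. In all, 13 of 67 members passed in at least 1 setting and 54 in none. The same count was not made over all tested probe sets, so it does not set the family apart. Calls over all tested probe sets also rose in some settings, to 1330 higher and 2143 lower with array weights. In at least 1 alternative 28 of 67 members changed sign, and 0 of the 19 members without overlap were among them.

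**Figure D5:**
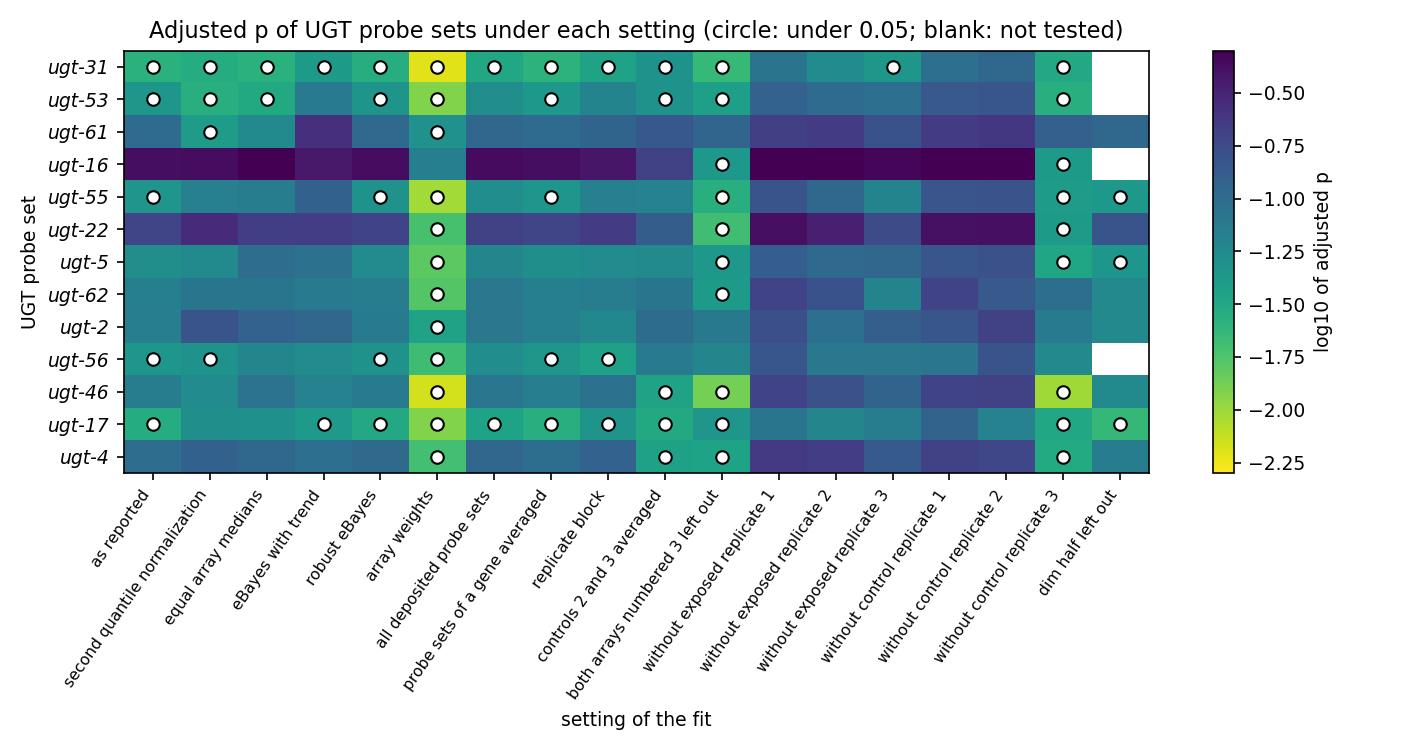
Adjusted p in limma (colour, log10 scale) of the followed UGT probe sets that passed at least once (y axis, ordered by their difference) under each setting of the fit (x axis), with circles for an adjusted p under 0.05 and blank cells where a probe set was not tested. The gene ugt-31 passes in 12 of 16 alternatives, and the columns without exposed 1, exposed 2, control 1 or control 2 hold no circle.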

How the data were processed

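Total RNA (200 ng) from each of 6 samples was amplified and read on 1 one-colour Affymetrix array each, per the labels' protocols. The deposited table holds RMA values on a log2 scale, for which the submitters' processing notes name Affymetrix Expression Console; a version or genome build was not given in the sources used here, and coordinates are left out. That the scale is log2 rests on the range of 1.14 to 13.96. RMA compresses differences at the dim end. Of 29317 probe sets, 26192 are annotated with a gene and entered limma 3.58.1 (R 4.3.3, lmFit and eBayes, two-sided, exposed minus control), with Benjamini-Hochberg adjustment over all of them. Intervals are limma's for single probe sets, at 95%. The smallest p of an exact permutation test of 3 arrays against 3 is 0.1, and that test was left aside. The number of arrays limits the precision. The procedure was also run on simulated data with independent scatter for each probe set. Those data held no shift shared by an array, so the run does not bear on the influence of single arrays.

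Genes were named by a rule: every called member, the members whose groups do not overlap with the largest differences (up to 6 a side), the 5 brightest, the 2 with the largest spread, and the leading genes of each list. To these were added members named after their values were seen: ugt-1, ugt-22, ugt-16, the other members without overlap, members described by brightness or as neighbours, and sqv-4 and skn-1. The members, lists, groups of neighbours, tests and alternatives were chosen with earlier results of these data known. Chromosomes and neighbours come from RefSeq (WBcel235). Protein and promoter sequences, detection calls and scanner files were not used here. The title's replicate number was followed where 1 control carries the number 2 in its source label and 3 in its title.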

Additional observations from a re-analysis of the deposited data

How the results depend on the processing

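Over 17 alternatives, 26 UGT probe sets were followed, giving 434 values: 364 kept their direction and their side of the threshold, 41 lost a call, 22 gained one and 7 turned their sign. The turned signs were in ugt-18 (-0.12 without control 2, in a range of -0.12 to 0.94 without single arrays), ugt-12 (0.015 with equal array medians, and -0.69 to 0.29 without single arrays, the highest without control 2) and ugt-50 (0.058 with equal array medians, 0.10 with array weights, 0.21 without both arrays numbered 3, and -0.34 to 0.20 without single arrays, the highest without control 3). None of these 3 passed as reported. UGT probe sets called higher and lower, 2 and 3 as reported, were 1 and 1 with an intensity trend in eBayes, 1 and 1 over all deposited probe sets, 0 and 3 without the dim lower 50% of probe sets (29 members kept, without ugt-31, ugt-53 and ugt-56), 3 and 9 with array weights, 2 and 8 without both arrays numbered 3, 3 and 1 after a second quantile normalization and 2 and 0 with equal array medians. Leaving out single arrays gave 0 to 2 higher and 0 to 7 lower. Over all tested probe sets, 278 higher and 681 lower calls became 427 and 603 after the second quantile normalization, 598 and 397 with equal array medians, 1330 and 2143 with array weights and 827 and 1490 without both arrays numbered 3, and ranged from 6 to 661 and from 43 to 1335 without single arrays. The members' median log2 difference was 0.17 with equal array medians and -0.21 without the dim probe sets, against -0.04 as reported, and -0.08 to 0.01 without single arrays. With the replicate number as a block 1 UGT was higher and 2 lower (ugt-53 at 0.0631 and ugt-55 at 0.067 did not pass). Deviations of same-numbered arrays correlated at 0.14, 0.08 and 0.25, exposed 1 correlated best with control 2 (0.19), and the labels state no shared batch, so the numbers were not taken as pairs. The cause of these shifts was not tested.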
